A study of Mus musculus with 18 samples.

Results

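The miR-17-92 cluster was followed in small RNA libraries of BV-2 cells, an immortalized mouse microglial line that is used as a cell culture model of the brain's resident macrophages. Its rows were chosen by name. They were the 6 hairpins of the host gene Mir17hg (mmu-mir-17, mmu-mir-18a, mmu-mir-19a, mmu-mir-20a, mmu-mir-19b-1 and mmu-mir-92a-1) and their 12 mature arms, such as mmu-miR-20a-3p, 18 of the 2134 rows that the files list. The prefix mmu, for mouse, is left off from here on. All 18 had at least 10 reads over the 18 samples and were tested. The study asked how LPS, a bacterial lipopolysaccharide that activates microglia through TLR4, and cannabinoids alter miRNA levels. There were 3 samples in each of 6 groups. Ctrl cells received neither agent. LPS cells received LPS at 100 ng/ml for 4 h. CBD and THC cells received 10 uM cannabidiol or tetrahydrocannabinol for 6 h in all. CBD_LPS and THC_LPS cells received the cannabinoid for 2 h before LPS was added for 4 h. All groups came from the same cell line, and no allele or transgene was named. The labels do not say that samples of a group were separate cultures, so p-values measure the spread between these samples, which may be technical.

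The libraries held 442718 to 1057147 assigned reads, so that 3 reads, the floor used here, came to 2.98 to 6.38 CPM, reads scaled to library size. Each sample is named by the number in its label. Samples 22 to 27, 1 of each group, differed from their replicates by a chi-square per degree of freedom of 41.3 to 98.6, whereas the other pairs of replicates gave 3.04 to 9.73 except Ctrl 28 and 34, which gave 51.6. No pair was a duplicate library. The myeloid marker miR-142-5p had a median of 8703 CPM, miR-142-3p 1849 CPM and miR-223-3p 132 CPM. The neuronal marker miR-124-3p, the liver marker miR-122-5p and the muscle markers miR-1a-3p and miR-133a-3p all had a median of 0 CPM, and miR-9-5p had 9.82 CPM. Of markers also linked to neurons or oligodendrocytes, miR-128-3p had 465 CPM, miR-338-3p 67.6 CPM and miR-219-5p 3.21 CPM. miR-155-5p, a known LPS-responsive miRNA, was upregulated 10.1-fold in LPS versus Ctrl (95% interval 7.31 to 13.9).

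A miRNA cluster is transcribed as a single primary RNA. Drosha cuts each hairpin out of it, Dicer removes the loop, and 1 arm of the resulting duplex is loaded into an Argonaute protein as the guide while the other, the passenger, is mostly degraded. The level of each mature product depends on these later steps as well as on transcription. The miR-17-92 cluster, also called oncomir-1, is induced by Myc, promotes proliferation and survival, and limits the proapoptotic protein Bim. In myeloid cells its miRNAs are known to restrain differentiation.

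In GRCm38, the annotation places Mir17hg, a long non-coding RNA gene, on the plus strand at chr14:115042879-115046727. All 6 hairpins lie in its exon 2 (chr14:115043271-115046727), within 836 bases, in the order mir-17, mir-18a, mir-19a, mir-20a, mir-19b-1, mir-92a-1. RefSeq (GRCm38.p6) gave a mature sequence for 11 of the 12 mature rows, and miR-19a-5p had none. The guide arms are shown first because their seeds (bases 2 to 8, in capitals), which select targets, fall into 4 groups. miR-17-5p and miR-20a-5p share a seed, as do both miR-19 guides:
miR-17-5p: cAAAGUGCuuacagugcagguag
miR-20a-5p: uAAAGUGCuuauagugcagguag
miR-18a-5p: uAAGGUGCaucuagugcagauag
miR-19a-3p: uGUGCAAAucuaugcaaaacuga
miR-19b-3p: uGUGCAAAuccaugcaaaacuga
miR-92a-3p: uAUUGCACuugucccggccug

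Counted from 1 at the 5' end, miR-17-5p and miR-20a-5p differ by C1U and C12U, and miR-19a-3p and miR-19b-3p by U11C alone. The opposite arms carry seeds of their own. They are shown because the changes below fell on miR-20a-3p and miR-92a-1-5p:
miR-17-3p: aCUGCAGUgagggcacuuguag
miR-18a-3p: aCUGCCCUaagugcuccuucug
miR-20a-3p: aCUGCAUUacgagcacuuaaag
miR-19b-1-5p: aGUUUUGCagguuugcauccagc
miR-92a-1-5p: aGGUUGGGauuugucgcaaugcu

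miR-20a-3p was the only mature row whose RefSeq sequence had the seed CUGCAUU. It differs from miR-17-3p at 6 positions, of which G7U lies in the seed. The hairpins of these arms are given with the arm in capitals, since the files also hold a row for each hairpin. The first lies at chr14:115044157-115044263 and the second at chr14:115044427-115044506, both on the plus strand:
Mir20a: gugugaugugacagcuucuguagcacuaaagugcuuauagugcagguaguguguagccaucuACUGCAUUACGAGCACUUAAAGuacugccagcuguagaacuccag
Mir92-1: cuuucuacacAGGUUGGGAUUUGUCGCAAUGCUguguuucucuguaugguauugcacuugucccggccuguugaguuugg

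The 12 mature rows together held 11.1% to 20.8% of all reads in a sample (median 14.7%). miR-92a-3p, a guide that is also known as a regulator of blood vessel growth, held 91.2% of these reads. It ranked 1 among all rows in 17 of 18 samples and 2 in the other, at 111308 to 181562 CPM. The guides kept the order miR-92a-3p, miR-17-5p, miR-19b-3p, miR-20a-5p, miR-18a-5p, miR-19a-3p in 18 of 18 samples. Their medians were 124851, 3325, 2704, 1745, 1087 and 488 CPM. Products of the same primary transcript therefore differed by orders of magnitude in read number, although ligation and amplification preferences of small RNA libraries were not measured, and miR-19b-3p and miR-92a-3p have copies of identical sequence on the X chromosome (Mir19b-2 and Mir92-2).

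**Figure D1:**
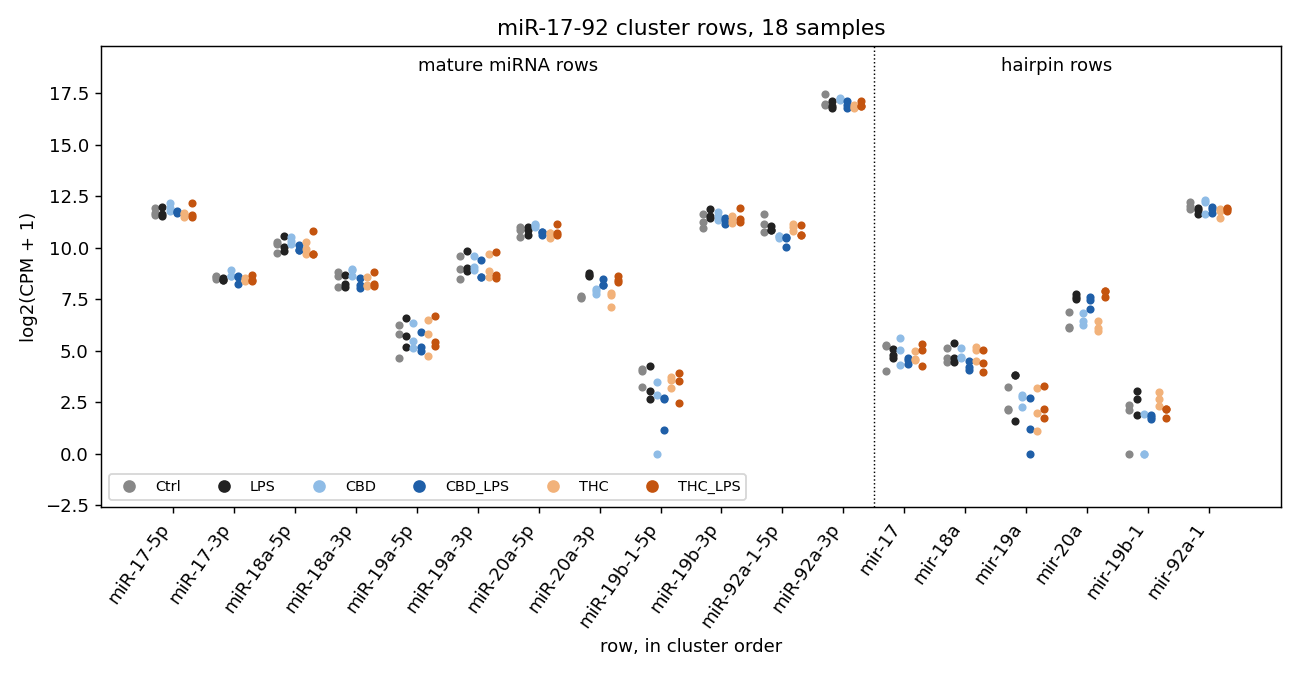
log2(CPM + 1) of each cluster row (x axis, in cluster order) in each of the 18 samples (points, coloured by group). miR-92a-3p lies far above every other row, mir-19a and mir-19b-1 reach 0, and only mir-20a and miR-20a-3p show LPS groups lying above the groups without LPS in all 3 settings.

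The arm that dominated changed along the cluster. The 5p arm held 90.3% of the arm reads of mir-17, 76.1% of those of mir-18a and 86.3% of those of mir-20a. The 3p arm held 91.2% for mir-19a, 99.7% for mir-19b-1 and 98.6% for mir-92a-1. The shares of mir-19b-1 and mir-92a-1 can include 3p reads from the X-linked copies. The passenger miR-92a-1-5p was nevertheless an abundant row, at 1036 to 3207 CPM (median 1790), near the guide miR-20a-5p. The passengers miR-17-3p (300.0 to 484 CPM) and miR-18a-3p (262 to 501 CPM) were of middle abundance, and miR-19a-5p (23.9 to 101 CPM) and miR-19b-1-5p (0 to 18.3 CPM) were low.

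The hairpin rows held fewer reads than the arms of the same hairpin and so are not their sum. How reads were divided between a hairpin row and its arm rows is not given in the sources used here. mir-20a stood highest, with 6.77 reads in the hairpin row per 100 arm reads, followed by mir-92a-1 (2.85), mir-18a (1.71), mir-19a (0.804), mir-17 (0.722) and mir-19b-1 (0.120). mir-19a and mir-19b-1, with 67 and 46 reads over all samples, were at or near the floor, and no fold is given for them.

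LPS raised mir-20a and its 3p arm and no other row of the cluster passed the test. Over all samples, with the cannabinoid as a term, mir-20a was 2.36-fold higher with LPS and miR-20a-3p 1.74-fold higher, while the guide from the same hairpin, miR-20a-5p, was at 0.974-fold (95% interval 0.827 to 1.15). A row was called here at an adjusted p of at most 0.1 over all 1363 tested rows. Higher calls made up 1.32% of these rows and lower calls 0.22%, against 2 and 0 of the 18 cluster rows. mir-20a and miR-20a-3p were in a list that the study chose on these samples, so the count is not independent evidence of their direction.

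The mir-20a row was at 119, 70.1 and 68.7 CPM in Ctrl samples 22, 28 and 34. It was at 216, 181 and 195 CPM in LPS samples 23, 29 and 35. All 3 LPS samples lay above all 3 Ctrl samples, with means of 197 ± 17.3 and 86.0 ± 28.7 CPM (SD, n = 3). With CBD it was at 74.6, 115 and 86.9 CPM without LPS and at 195, 131 and 175 CPM with LPS. With THC it was at 85.5, 61.4 and 67.5 CPM without LPS and at 235, 194 and 237 CPM with LPS. The 9 samples with LPS did not overlap the 9 without it, whose highest was 119 CPM against a lowest of 131 CPM. The share of all rows that separate in this way, for this row and for miR-20a-3p below, was not counted. The log2 difference over all samples was 1.24 (SE 0.16, limma adjusted p = 3.91e-05).

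miR-20a-3p, the passenger, was at 194, 188 and 198 CPM in Ctrl and at 403, 440 and 402 CPM in LPS samples. With CBD it was at 214, 238 and 256 CPM without LPS and at 288, 288 and 356 CPM with it. With THC it was at 139, 211 and 220 CPM without LPS and at 318, 348 and 392 CPM with it. Here too the samples with and without LPS did not overlap, and the gap was narrowest in the CBD cells, with means of 311 ± 39.5 CPM in CBD_LPS and 236 ± 21.3 CPM in CBD (SD, n = 3), against 415 ± 21.6 CPM in LPS and 193 ± 4.996 CPM in Ctrl. The log2 difference over all samples was 0.80 (SE 0.13, limma adjusted p = 0.000578).

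miR-20a-5p, the guide, was at 1835, 1464 and 2052 CPM in Ctrl and at 2087, 1568 and 1846 CPM in LPS samples. With CBD it was at 2028, 2203 and 2267 CPM and with CBD_LPS at 1563, 1761 and 1729 CPM. With THC it was at 1658, 1445 and 1694 CPM and with THC_LPS at 2315, 1586 and 1698 CPM. The ranges overlapped in Ctrl and THC cells, while the CBD samples all lay above the CBD_LPS samples (log2 difference -0.36, limma adjusted p = 0.490, not called). The share of all rows with such a gap was not counted. The log2 difference of miR-20a-5p over all samples was -0.04 (SE 0.11, limma adjusted p = 0.952).

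**Figure D2:**
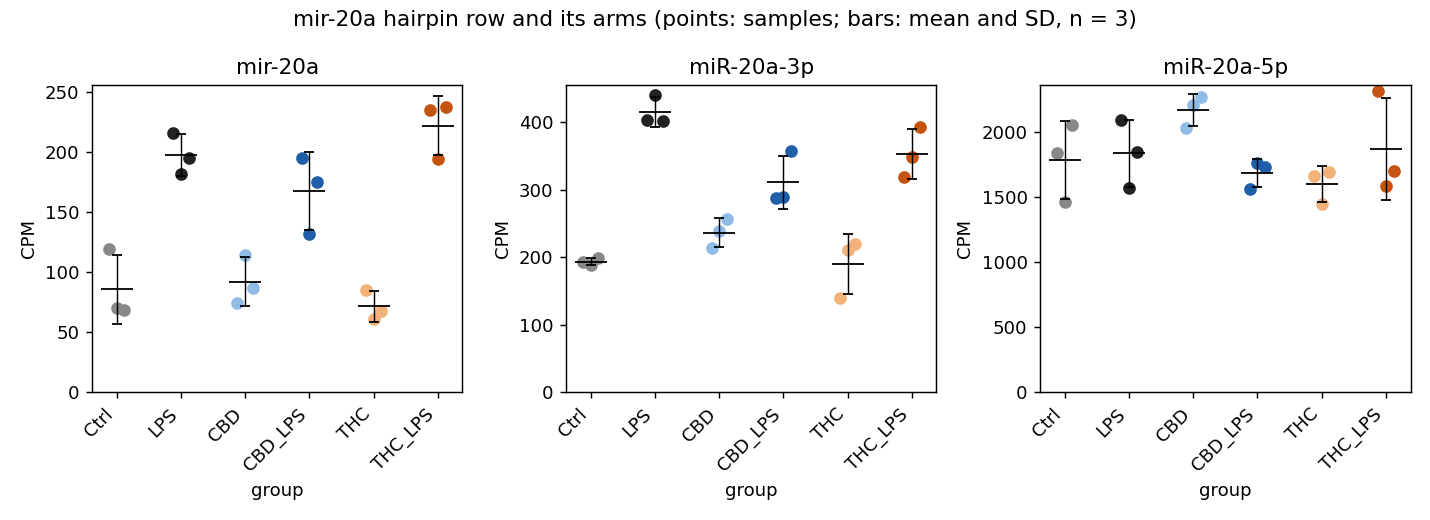
CPM of the mir-20a hairpin row, miR-20a-3p and miR-20a-5p in the 6 groups (points are samples, bars the mean and SD of 3). The first 2 panels show every LPS sample above every sample without LPS. The third shows miR-20a-5p at 1445 to 2315 CPM, with the CBD samples (2028 to 2267 CPM) above the CBD_LPS samples (1563 to 1761 CPM), a difference that was not called.

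The 3 LPS comparisons use separate samples, and each was tested by itself at the study's criterion (p of at most 0.005 and at least 1.5-fold). In LPS versus Ctrl, mir-20a rose 2.35-fold (adjusted p = 0.026) and miR-20a-3p 2.14-fold (limma adjusted p = 0.00682), 2 of 18 cluster rows where 1.39% of all rows were called higher. In THC_LPS versus THC, mir-20a rose 3.09-fold (adjusted p = 0.00207) and miR-20a-3p 1.88-fold (limma adjusted p = 0.038), 2 of 18 rows against 1.17%. In CBD_LPS versus CBD, mir-20a alone was called, at 1.81-fold (limma adjusted p = 0.272), 1 of 18 rows against 0.88% called higher and 0.734% lower. This call was lost without CBD 24, CBD 36, CBD_LPS 26 or CBD_LPS 38 (log2 difference 0.72 to 0.83) and in samples 28 to 39 alone (0.60). There miR-20a-3p was at 1.31-fold (interval 0.982 to 1.75) and not called.

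The smaller size in CBD cells was tested as an interaction. For miR-20a-3p the LPS effect differed between CBD and untreated cells by -0.71 on the log2 scale (95% interval -1.30 to -0.12, limma adjusted p = 0.909). For mir-20a it differed by -0.37 (interval -1.14 to 0.40). No row among all 1363 had an adjusted p of at most 0.1 for the interaction of LPS with CBD or with THC. The background was thus 0%, and edgeR and DESeq2 also called 0. Of the 1363 rows, 65 for CBD and 51 for THC had an unadjusted limma p of at most 0.05. A difference in the LPS response of the cluster between cannabinoid settings was not detectable.

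The other 16 cluster rows were at log2 differences of -0.32 to 0.50 with LPS over all samples, with limma adjusted p of 0.752 to 0.992. For the 5 most abundant guides, the 95% intervals lay within 0.754- to 1.27-fold. miR-17-5p, the namesake of the cluster and a repressor of cell cycle inhibitors, was at a log2 difference of -0.04 (SE 0.11). miR-92a-3p was at -0.13 (SE 0.10) and miR-19b-3p at 0.08 (SE 0.13). Over the 18 rows the median was -0.08, and over all rows 0.03.

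**Figure D3:**
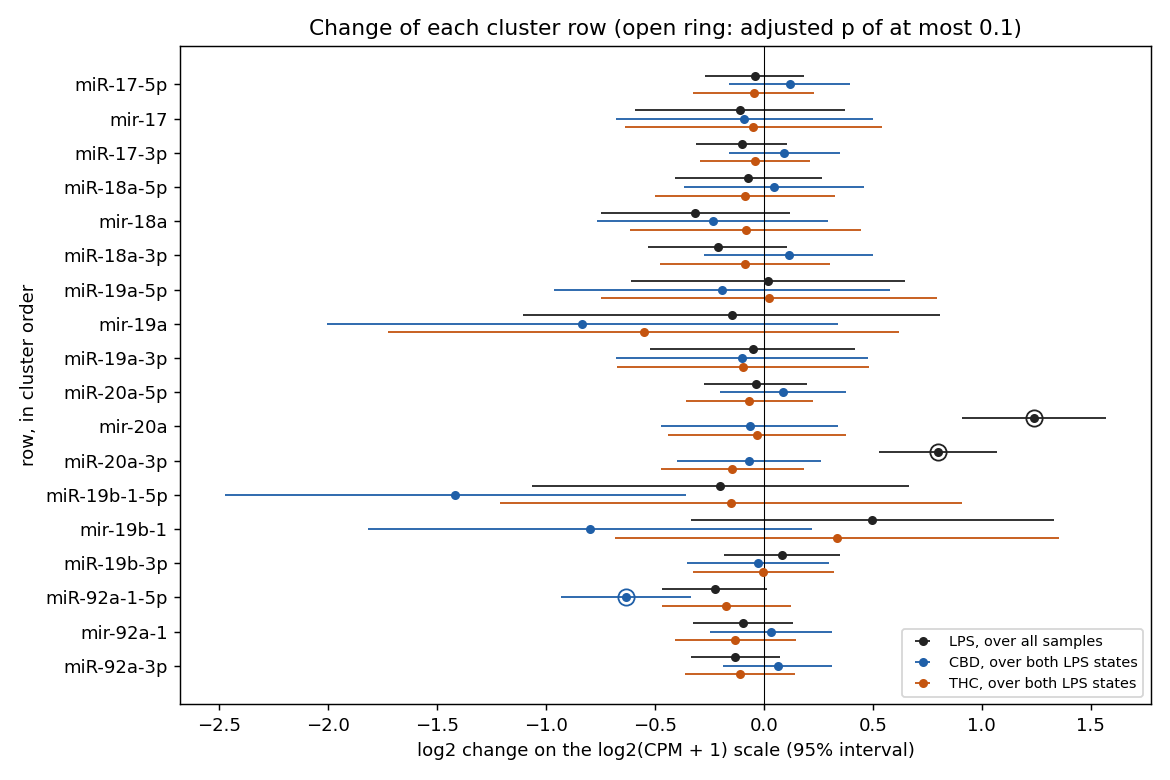
log2 difference (x axis, points with 95% intervals) of each cluster row (y axis, in cluster order) for LPS over all samples and for CBD and THC over both LPS states, with a ring where the adjusted p was at most 0.1. For LPS only mir-20a (1.24) and miR-20a-3p (0.80) carry a ring, and for CBD only miR-92a-1-5p (-0.63).

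Scaled to the cluster itself, the result had the same direction. The log2 ratio of a row to the geometric mean of the other cluster rows of its kind was compared with and without LPS, permuting LPS within each cannabinoid setting. This measure was added after the values had been seen. It used the samples in which mir-20a and miR-20a-3p had already been called, so its p-values are not independent support. The hairpin reference includes mir-19a and mir-19b-1, and the mature reference miR-19b-1-5p, which were near the floor. For mir-20a against the other 5 hairpin rows, the ratio was 1.27 higher with LPS (exact permutation p = 0.00025, two-sided, the smallest that 8000 arrangements allow). For miR-20a-3p against the other 11 mature rows it was 0.89 higher (exact permutation p = 0.00075). Among the remaining 16 rows the smallest exact permutation p was 0.004, for mir-18a (-0.59), whose reference includes mir-20a, followed by 0.037 for miR-18a-3p (-0.22).

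The arms of mir-20a thus did not change together. Of its arm reads, 3p held 9.54%, 11.4% and 8.80% in Ctrl and 16.2%, 21.9% and 17.9% in LPS samples. It held 9.53%, 9.77% and 10.2% in CBD and 15.5%, 14.1% and 17.1% in CBD_LPS samples. It held 7.75%, 12.8% and 11.5% in THC and 12.1%, 17.97% and 18.8% in THC_LPS samples. Only THC_LPS 27 (12.1%) fell among the samples without LPS, the highest of which was THC 31 (12.8%).

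The ratio of 3p to 5p for mir-20a was 1.79-fold higher with LPS (log2 5p over 3p -0.84, SE 0.14, limma adjusted p = 0.00129). Of 193 hairpins with both arms tested, 8 (4.15%) were called for LPS, and mir-20a was the only cluster hairpin among the 6 tested. The other 7 were miR-155, miR-146a, miR-21a, miR-25 and miR-27a, in which the ratio shifted toward 3p, and miR-221 and miR-222, in which it shifted toward 5p. A shift of the ratio does not say which arm changed. For miR-25 the 5p arm fell, as given below. The other 5 cluster hairpins were at log2 differences of -0.28 to 0.14.

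**Figure D4:**
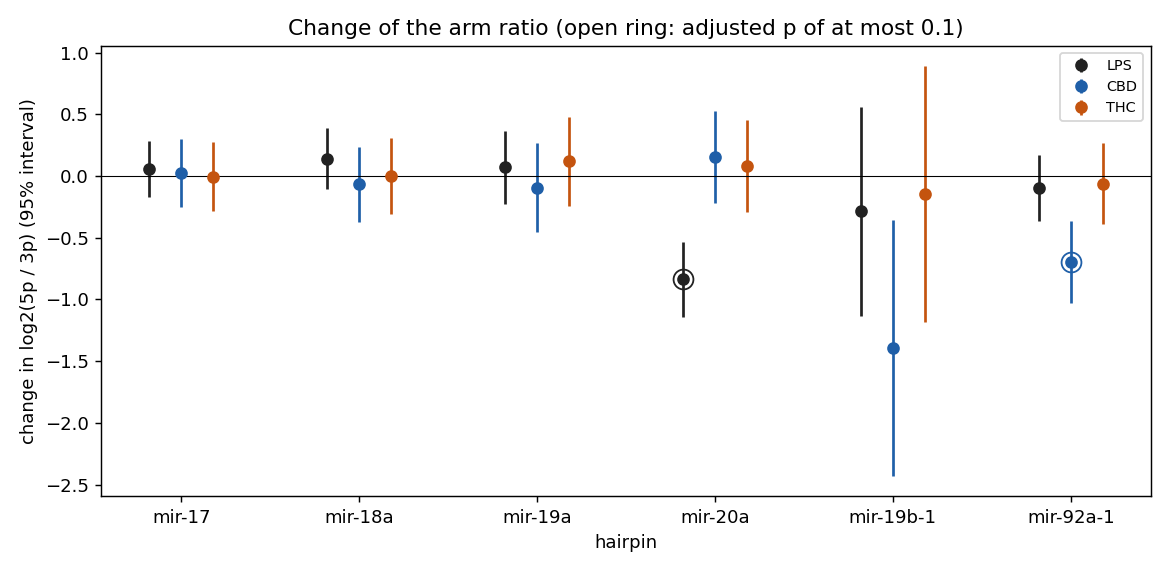
Change in log2(5p / 3p) with its 95% interval (y axis) for the 6 cluster hairpins (x axis) with LPS, CBD and THC, each over all samples, with a ring where the adjusted p was at most 0.1. The LPS ring is at mir-20a (-0.84) and the CBD ring at mir-92a-1 (-0.70).

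With limma, 0 of the 18 cluster rows passed the study's criterion in any of the 4 comparisons of a cannabinoid with its control. With edgeR, with DESeq2 or with a covariate for samples 22 to 27 in limma, 1 row, miR-92a-1-5p, passed it in CBD versus Ctrl. In that comparison limma called 1.61% of all rows. There 2 cluster rows had an unadjusted limma p of at most 0.05, against 125 of all 1363 rows. In THC versus Ctrl, 0 of 18 were called (0.44% of all rows), and 0 had such a p, against 46 of all rows. In CBD_LPS versus LPS and in THC_LPS versus LPS, 0 of 18 were called (0.22% of all rows in each, in the second 0.0734% lower). Such an unadjusted p was found for 3 and 0 cluster rows, against 44 and 32 of all rows. edgeR and DESeq2 called 0 cluster rows in these 3 comparisons.

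miR-92a-1-5p, the passenger of mir-92a-1, was the row nearest to a response to CBD. It was at 3207, 2307 and 1769 CPM in Ctrl and at 1421, 1502 and 1538 CPM in CBD samples. It was at 2116, 1884 and 1868 CPM in LPS and at 1036, 1411 and 1454 CPM in CBD_LPS samples. The means were 1487 ± 59.8 CPM in CBD and 2427 ± 727 CPM in Ctrl (SD, n = 3). All CBD samples lay below all samples without CBD at the same LPS state, including THC (1812, 2068 and 2265 CPM) and THC_LPS (2214, 1587 and 1599 CPM). The share of all rows that separate in this way was not counted.

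In CBD versus Ctrl miR-92a-1-5p was at 0.631-fold (95% interval 0.464 to 0.858, limma adjusted p = 0.254). With a covariate for samples 22 to 27 the log2 difference there was -0.66 (SE 0.19, limma adjusted p = 0.167, called), and in samples 28 to 39 alone -0.41 (limma adjusted p = 0.0407, not called). In CBD_LPS versus LPS the row was at 0.659-fold (interval 0.484 to 0.896, adjusted p = 1). Estimated over both LPS states, a comparison added after the values had been seen, it fell to 0.645-fold with CBD (log2 -0.63, SE 0.14, limma adjusted p = 0.0901). That was 1 of 18 cluster rows, where 0.147% of all rows were called lower. The call lay near the threshold. Leaving out 1 sample at a time ended it in 13 of 18 fits, with log2 values of -0.53 to -0.72, the smallest without Ctrl 22, the sample with 3207 CPM. In samples 28 to 39 alone it was -0.40 (limma adjusted p = 0.0692). With THC over both LPS states it was at 0.888-fold (interval 0.722 to 1.09).

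The other rows of the same hairpin were not called. mir-92a-1 was at a log2 difference of 0.03 (SE 0.13) with CBD over both LPS states and miR-92a-3p at 0.06 (SE 0.12). Per 100 reads of miR-92a-3p there were 0.727 to 1.25 reads of miR-92a-1-5p in the 6 samples with CBD and 1.32 to 1.93 in the 12 without it, so the groups did not overlap. The share of the 193 hairpins with such a gap was not counted. The log2 ratio of 5p to 3p fell by 0.70 with CBD (SE 0.16, limma adjusted p = 0.0737), the only one of 193 hairpins called for CBD (0.518%). The arm ratio had been planned for LPS alone. This call for CBD, near the threshold, was not refitted with samples left out or under other settings. For THC it was -0.06 (SE 0.16), and no hairpin was called (0%). Reads of miR-92a-3p from the X-linked Mir92-2 cannot be told apart from those of Mir92-1, and the 5p arm of the X-linked hairpin, miR-92a-2-5p, was itself low (69.9 to 115 CPM).

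**Figure D5:**
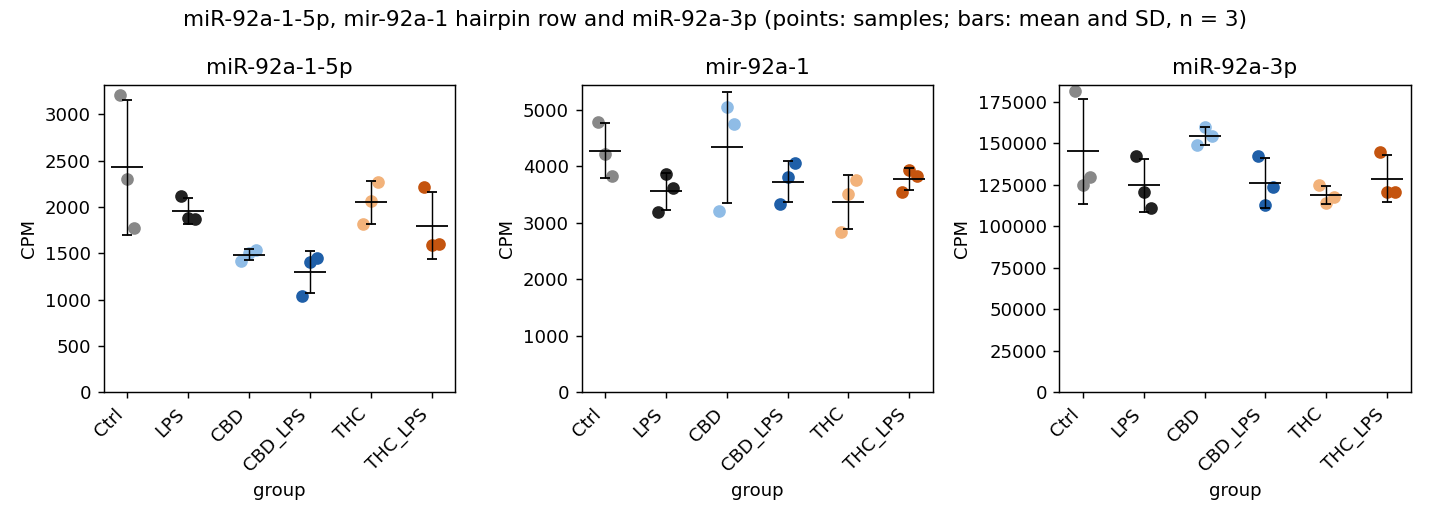
CPM of miR-92a-1-5p, the mir-92a-1 hairpin row and miR-92a-3p in the 6 groups (points are samples, bars the mean and SD of 3). miR-92a-1-5p lies lower in CBD and CBD_LPS (1036 to 1538 CPM) than in the other groups (1587 to 3207 CPM), and the other panels show no such step. How many of all rows show such a step was not counted.

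CBD and THC are structural isomers, THC having a closed pyran ring where CBD is open and carries a further free hydroxyl group. They were compared at the same dose and times in 2 pairs. In CBD versus THC, 0 of 18 cluster rows were called where 3.30% of all rows were, 1.98% lower. In that comparison 221 of all 1363 rows had an unadjusted limma p of at most 0.05, and so did 5 of the 18 cluster rows. Among them, miR-20a-5p was 1.36-fold higher with CBD (interval 1.04 to 1.76, adjusted p = 0.217), miR-92a-3p 1.30-fold higher (1.03 to 1.64, adjusted p = 0.242) and miR-92a-1-5p at 0.729-fold (0.536 to 0.991, adjusted p = 0.293). The others were miR-18a-3p (log2 0.55, adjusted p = 0.284) and mir-19b-1, which was near the floor in both groups. edgeR and DESeq2 called 0 cluster rows. In samples 28 to 39 alone, miR-18a-3p and mir-19b-1 passed the criterion. There mir-19b-1 had 0 reads in CBD 30 and CBD 36, against 6 in THC 31 and 4 in THC 37. The share of all rows that passed in these samples was not counted.

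In CBD_LPS versus THC_LPS, 0 of 18 cluster rows were called (0.147% of all rows), and only miR-92a-1-5p had an unadjusted limma p of at most 0.05 (0.723-fold, interval 0.532 to 0.984, adjusted p = 1), with 0 called by edgeR and DESeq2. Of all rows, 36 had an unadjusted limma p of at most 0.05 in CBD_LPS versus THC_LPS. Over both LPS states, the difference between the compounds for miR-92a-1-5p was -0.46 on the log2 scale (interval -0.76 to -0.16, limma adjusted p = 0.286), also a comparison added later. No row of the whole table was called there by limma (0%), with 113 at an unadjusted p of at most 0.05, while DESeq2 called miR-92a-1-5p. For mir-20a the difference between the compounds over both LPS states was -0.03 (interval -0.44 to 0.37) and for miR-20a-3p 0.08 (-0.25 to 0.41). In folds these intervals ran from 0.737 to 1.30 and from 0.839 to 1.32.

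Samples 22 to 27, which hold 1 sample of each group, differed from samples 28 to 39 in the cluster as well. miR-19a-3p was at 680 to 931 CPM in samples 22 to 27 and at 352 to 536 CPM in the others, and miR-19a-5p at 58.6 to 101 and 23.9 to 55.9 CPM, with no overlap for either. How many of all rows separated likewise was not counted, so this is not a trait shown to be particular to the cluster. miR-18a-5p (ratio of medians 1.46) and miR-18a-3p (1.40) were also higher in samples 22 to 27, whereas miR-20a-3p (0.921) and miR-17-3p (0.938) were not. In samples 28 to 39 alone, the LPS difference over all settings was 1.25 for mir-20a (limma adjusted p = 0.000468) and 0.75 for miR-20a-3p (adjusted p = 0.00192), so both were called without samples 22 to 27. In CBD_LPS versus CBD within samples 28 to 39, miR-18a-3p passed the criterion in the lower direction (log2 -0.82, limma adjusted p = 0.00361), as it did not with all samples (-0.58, limma adjusted p = 0.418). For samples 28 to 39 alone, the share of all rows called was not counted.

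Related clusters share these seeds. In mouse, miR-106b-25 lies in an intron of Mcm7 and miR-106a-363 on the X chromosome, and of their 25 rows 18 passed the filter. The seed of miR-17-5p is also that of miR-93-5p and miR-106b-5p, and the seed of miR-92a-3p that of miR-25-3p:
miR-93-5p: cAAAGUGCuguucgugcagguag
miR-106b-5p: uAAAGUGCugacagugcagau
miR-25-3p: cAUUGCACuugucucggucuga

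Of the reads that carried the miR-17 seed AAAGUGC, the miR-17-92 cluster supplied 36.6% to 55.7% (median 41.7%), over 7 mature rows with that seed. miR-93-5p had a median of 6670 CPM, above miR-17-5p at 3325 CPM. Their ranges over the samples overlapped, at 3157 to 7986 CPM and 2923 to 4576 CPM. For the miR-92 seed AUUGCAC the cluster row miR-92a-3p held 93.05% to 95.4% of the CPM summed over 6 rows. The miR-19 seed GUGCAAA was present only on miR-19a-3p and miR-19b-3p, and the miR-18 seed AAGGUGC was at least 99.5% miR-18a-5p. The X-linked rows were at most 6.32 CPM except mir-92a-2 (185 to 362 CPM), miR-92a-2-5p and miR-19b-2-5p (2.36 to 12.8 CPM).

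Of the 18 related rows tested, 0 rose and 1 fell with LPS over all samples, where 1.32% of all rows rose and 0.22% fell. It was miR-25-5p, the passenger of mir-25 (0.427-fold, 95% interval 0.306 to 0.595, limma adjusted p = 0.00316). The guide of the same hairpin, miR-25-3p, was at 0.945-fold (interval 0.828 to 1.08).

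Outside these clusters, the rows most like mir-20a across the 18 samples were miR-155-5p (Pearson's r = 0.941), mir-155 (0.937), miR-155-3p (0.915), miR-21a-3p (0.887) and mir-21a (0.865), out of 494 rows with at least 200 reads. The summed mature rows of the cluster, which miR-92a-3p dominates, were most like miR-92b-3p (0.886), miR-212-3p (0.882), miR-128-3p (0.879), miR-132-3p (0.874) and miR-151-3p (0.867), and had an r of -0.167 with miR-155-5p. These values describe 18 samples that share their treatments and scaling, and no test was made of them.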

How the data were processed

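Per the paper's methods, the authors made small RNA libraries with the TruSeq kit in a single pool, sequenced them on an Illumina instrument, aligned reads with BWA to the mouse sequences of miRBase with at most 10 mappings per read, and used edgeR. The miRBase version used for the alignment and the counting of reads with several mappings are not given in the sources used here. The deposited values are CPM scaled by edgeR's TMM factors, and the unit was recorded as signal for samples in which this scaling raised the sum of all rows. Every value was a whole number of reads (100% within 0.001 reads), and these reads were recovered.

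Rows with at least 10 reads over 18 samples (1363, of which 642 hairpins and 721 mature miRNAs) were tested on log2(CPM + 1), the pseudocount being 1, with limma 3.58.1 (R 4.3.3, mean-variance trend, Benjamini-Hochberg adjustment over all rows), so folds understate changes of low rows. edgeR 4.0.16 and DESeq2 1.42.0 on the recovered reads were alternatives. Pairs of groups were fitted in 1 model of 6 groups. Effects over all samples came from an additive model of LPS and cannabinoid, and arm ratios from the same model. Every cluster row was reported. Permutations were made in Python 3.11.15, and the scripts were tested on simulated data. Sequences came from RefSeq and positions from GENCODE M21. The members, lists and tests were chosen with earlier results of these data known.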

Additional observations from a re-analysis of the deposited data

How the results depend on the processing

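Depth limits the rows mir-19a, mir-19b-1 and miR-19b-1-5p, whose values were near the floor of 3 reads. No paired analysis was made, because each number in the labels is used once and no label names a set of samples. Pairing by the order of the numbers was not fitted. The covariate for samples 22 to 27, which stood apart in the data, was fitted instead and changed the cluster rows called in CBD versus Ctrl alone among the comparisons. With mature miRNAs tested alone, the mir-20a hairpin row is not in the table by construction, so the count of cluster rows called was 1 over all samples, in LPS versus Ctrl and in THC_LPS versus THC, and 0 in CBD_LPS versus CBD. Scaling by miR-103-3p and miR-191-5p moved the median of all rows by -0.16 in LPS versus Ctrl, by -0.31 in THC_LPS versus THC and by -0.23 in CBD versus THC, and library size alone by -0.13, -0.15 and -0.06. Scaling by those miRNAs left 1 call in LPS versus Ctrl (miR-20a-3p, mir-20a then at log2 1.02), 1 in THC_LPS versus THC (mir-20a, miR-20a-3p then at 0.56) and 0 in CBD_LPS versus CBD, where library size alone also left 0. In CBD versus Ctrl, 1 row (miR-92a-1-5p) was called with RLE scaling, library size alone, the reference miRNAs, edgeR, DESeq2 or a covariate for samples 22 to 27. In CBD versus THC, 2 were called in samples 28 to 39 alone. For CBD over both LPS states, 0 were called with every row of at least 1 read, with the reference miRNAs or with mature miRNAs alone, and for CBD minus THC over both LPS states DESeq2 called 1. Over all rows, DESeq2 called 18 for CBD over both LPS states (limma 4), 16 for CBD minus THC (limma 0) and 14 in CBD versus Ctrl (limma 22), and in THC versus Ctrl limma called 6, edgeR 2 and DESeq2 0. Leaving out each sample in turn gave 0 to 1 calls in CBD_LPS versus CBD, in CBD versus Ctrl (1 without Ctrl 34), in CBD versus THC (1 without CBD 24) and for CBD over both LPS states. It gave 2 in every fit of LPS over all samples, LPS versus Ctrl and THC_LPS versus THC. The causes were not tested. Of 304 refitted counts of calls, 266 were within 1.5 times the value reported, which includes counts of 0 that stayed at 0. None of the 198 refitted log2 differences of named rows reversed, but 25 of them were no longer called. Over all samples, mir-20a stayed between 1.06 and 1.32 and miR-20a-3p between 0.62 and 0.85, called under each alternative in which the row was tested. The comparisons over both LPS states for CBD and THC, and the ratio to the other cluster rows, were chosen after seeing the data.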
